A study of Mus musculus with 8 samples.

Results

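Mitochondrial beta-oxidation shortens fatty acids to acetyl-CoA inside mitochondria, and in the liver much of that acetyl-CoA is turned into ketone bodies for export. A fatty acid is first taken up, bound and activated to its CoA ester, then carried across the inner mitochondrial membrane as a carnitine ester. It is then shortened by a repeating spiral of dehydrogenation, hydration, a further dehydrogenation and thiolysis, and electrons from the acyl-CoA dehydrogenases reach the respiratory chain through the electron transfer flavoprotein. In the liver many genes of the pathway are known targets of the fatty acid receptor PPAR alpha.

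The 36 genes described here were chosen by name to cover these steps. They comprised 3 genes of fatty acid uptake and binding, 4 long-chain and 3 medium-chain acyl-CoA synthetases, 5 genes of the carnitine shuttle and its control, 8 acyl-CoA dehydrogenases, 7 later enzymes of the spiral, 3 genes of electron transfer, 2 of ketone body metabolism, and Hsdl2. All 36 symbols matched a gene of the 56884 in the tables, and all 36 were among the 12412 genes with enough counts to be tested.

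The libraries came from the livers of female C57BL/6J mice in which a high-fat diet (lipids as 45% of energy) had brought on obesity. After 4 months on it, the DIO group (3 mice) stayed on this diet and the DIO + DHA group (5 mice) had 15% by weight of its lipids exchanged for a fish oil concentrate with 683.4 mg of docosahexaenoic acid (DHA) per g, both until 18 months of age. The concentrate also held 46.7 mg of eicosapentaenoic acid (EPA) per g, with n-3 fatty acids at 838.9 mg per g in total. An effect of DHA alone therefore cannot be told apart here. Per the paper's methods, the mice were killed after an overnight fast. Neither a lean group nor a group on ordinary chow was analysed here, so each difference is one between obese mice on 2 high-fat diets. Each mouse gave 1 library of 3′-enriched cDNA, the labels place all 8 in 1 batch, and their depth ran from 1723800 to 5690347 counts (median 4495644).

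Values are counts scaled to a common library total (CPM), and log2 fold changes (DIO + DHA over DIO) and adjusted p-values come from the quasi-likelihood test of edgeR, adjusted over all tested genes by the Benjamini-Hochberg method. A gene was called at an adjusted p under 0.05. Since counts from 3′ ends depend on each transcript's end, levels were not compared between genes.

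In the DIO + DHA group, 16 of the 36 genes (44.4%) were called higher, against a background of 7.89% of all tested genes. Another 2 genes (5.56%) were called lower, against a background of 7.28%. Slc27a2, Fabp1, Acsl1, Acsl5, Crat, Mlycd, Acadm, Acad11, Acad12, Hadha, Hadhb, Eci1, Decr1, Etfa, Bdh1 and Hsdl2 rose, and the medium-chain synthetases Acsm1 and Acsm5 fell. The libraries of the groups did not overlap in 15 genes that were higher in DIO + DHA, where 9.55% of all tested genes behaved so, and in 2 that were lower, where 8.88% did. The other 19 overlapped.

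The changes were small. The genes called higher had log2 fold changes from 0.20 to 0.76, with a median of 0.41, and none of the 36 genes had an absolute value above 1. The median over the 36 genes was 0.20, beside 0.00 over all tested genes, and 28 of the 36 values were positive. A value above 0.1 was found in 25 of the 36 genes (69.4%) and in 37.7% of all tested genes. These are counts and medians of a list chosen with earlier results known, and were not tested as a set. Whether more RNA per hepatocyte, a larger share of hepatocytes or RNA of other tissues lay behind a higher value cannot be told apart in bulk tissue.

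**Figure D1:**
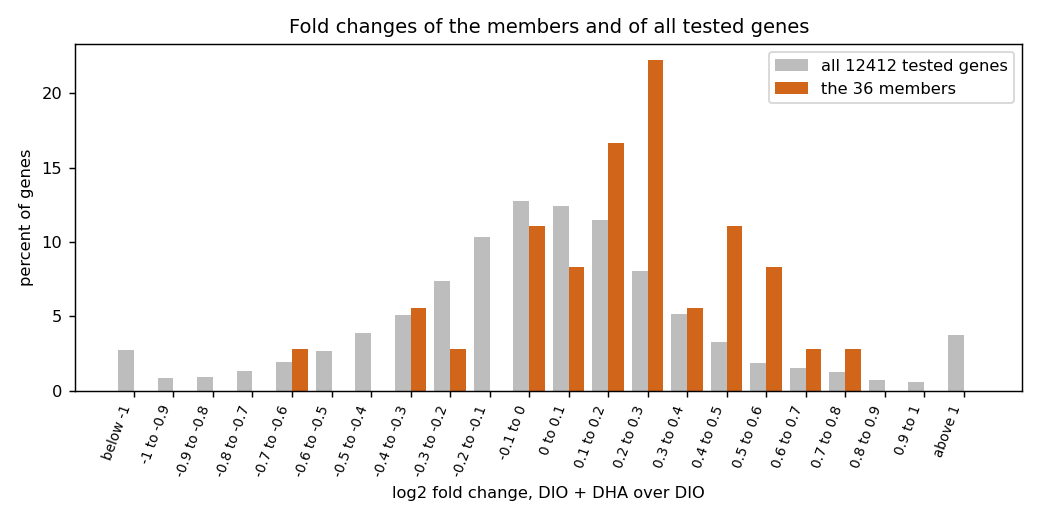
Percent of genes (vertical axis) in each interval of the log2 fold change of DIO + DHA over DIO (horizontal axis), for the 36 pathway genes (orange) and all 12412 tested genes (grey). Of the pathway genes, 25 lie above 0.1, and none lies below -1 or above 1.

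The spread between mice allowed changes of this size to be seen in the more abundant genes. In the 24 genes whose DIO mean reached 100 CPM, the coefficient of variation had a median of 5.64% in DIO (n = 3) and 5.28% in DIO + DHA (n = 5), where counting error alone would give 2.86% and 2.54%. Their standard errors on the log2 scale ran from 0.059 to 0.103. Among the 12 genes below 100 CPM they ran from 0.083 to 0.541, and the 95% intervals of uncalled genes were wide, for example -0.26 to 0.25 for Slc27a4 and -1.05 to 1.57 for Acadvl. The 10 abundant genes that were not called had upper 95% bounds of at most 0.36.

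**Figure D2:**
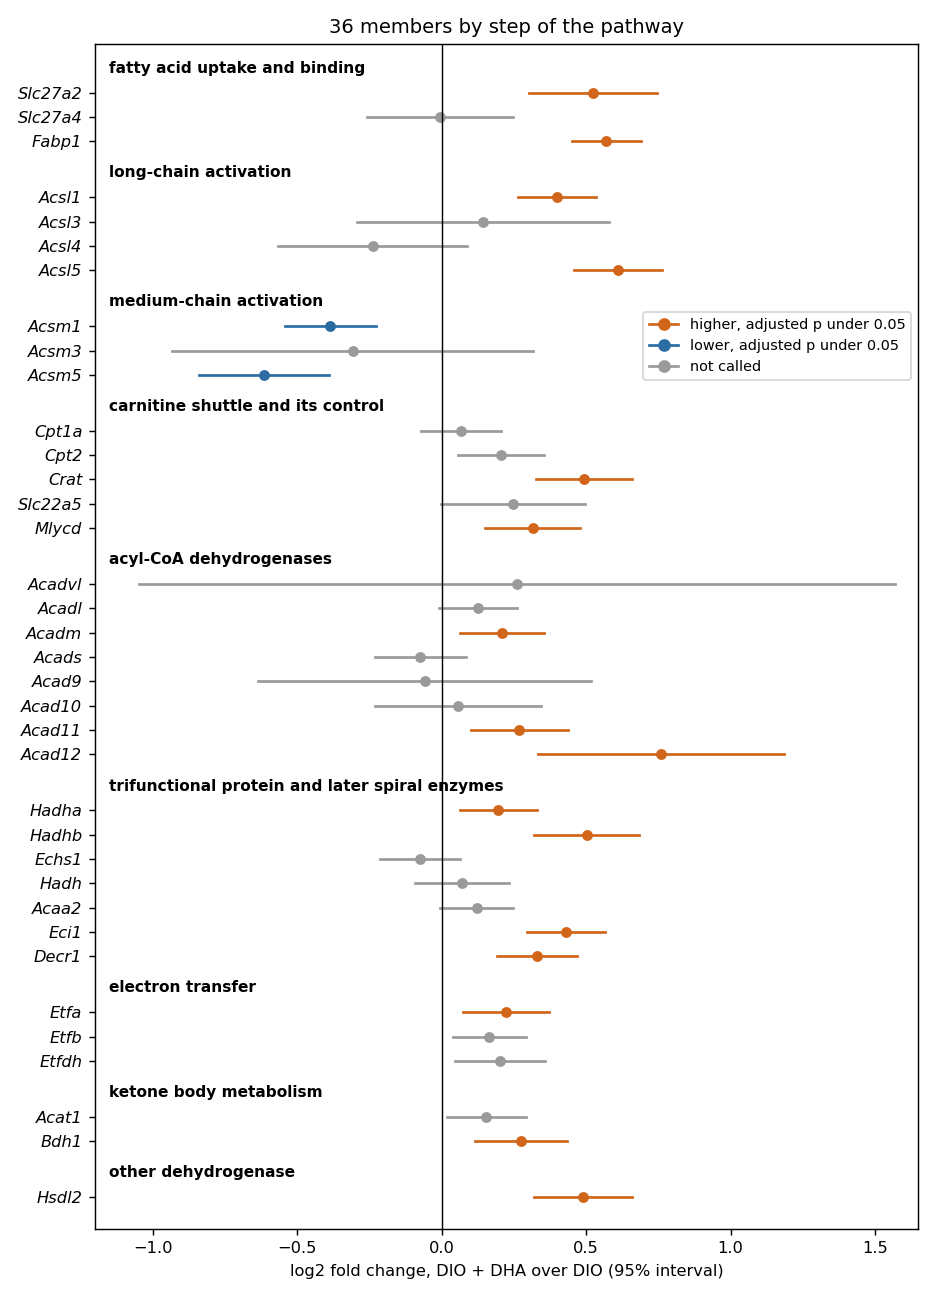
Log2 fold change of DIO + DHA over DIO (horizontal axis) of each of the 36 genes, grouped by step (vertical axis), with points for the edgeR estimate and lines for its 95% interval. Genes called higher (16) are orange, genes called lower (Acsm1 and Acsm5) blue, and the 18 uncalled genes grey.

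Of the 3 genes of uptake and binding, 2 (66.7%) rose, beside 7.89% of all tested genes. Fabp1 encodes the liver fatty acid binding protein, which carries long-chain fatty acids through the cytosol. Its level was 14317, 15012 and 15770 CPM in DIO replicates 1, 4 and 5, and 20450, 20919, 23659, 24238 and 22270 CPM in DIO + DHA replicates 1, 2, 4, 5 and 6. The groups were far apart, and Fabp1 rose 1.48-fold (log2 fold change 0.57, SE 0.059, adjusted p = 2.31e-11). Slc27a2, a very-long-chain acyl-CoA synthetase that also takes part in fatty acid uptake, stood at 1647, 1823 and 1477 CPM in DIO and at 2443, 2569, 2326, 2644 and 1869 CPM in DIO + DHA, in the same replicate order. The groups did not overlap, with DIO + DHA replicate 6 closest to the DIO libraries, and Slc27a2 rose 1.44-fold (0.52, SE 0.103, adjusted p = 0.00259). Slc27a4, a related transporter, had 26.5 ± 1.86 CPM in DIO (SD, n = 3) and 25.8 ± 1.13 CPM in DIO + DHA (SD, n = 5), with a log2 fold change of -0.01 that took the opposite sign, 0.03, without DIO replicate 1.

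The start of Fabp1 holds a close match to the element that PPAR alpha and its partner RXR bind, which consists of AGGTCA repeated in tandem with any 1 base between the copies. RefSeq promoters of 300 bases (assembly GRCm38.p6, 250 bases before to 50 after the start) were matched by symbol for 31 of the 36 genes, 33 promoters in all, and searched on both strands with up to 2 mismatches in the 12 half-site positions. A match was found in 3 of the 33 promoters (9.09%, 95% Wilson interval 3.14 to 23.6%) and in 3.86% of the 32851 promoters in the table. The 3 matches are shown with 8 bases on either side, on the strand of the gene, with the matched 13 bases in capitals.
Fabp1: acaatcacTGACCTATGGCCTatatctga
Etfa: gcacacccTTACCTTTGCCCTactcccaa
Echs1: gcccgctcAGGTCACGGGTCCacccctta
The windows lie at chr6:71199804-71199832 (+ strand), chr9:55512300-55512328 (- strand) and chr7:140116484-140116512 (- strand), and the sites begin 67, 77 and 83 bases before the start of the gene. The Fabp1 site has 1 mismatch and those of Etfa and Echs1 have 2, and in Fabp1 and Etfa the repeat reads on the opposite strand. Fabp1 and Etfa were called higher and Echs1 was not called. At most 1 mismatch left 3.03% of the member promoters against 0.554% of all, and at most 3 gave 42.4% against 24.6%, so the share depends on the number allowed.

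Of the synthetases that activate fatty acids to the CoA ester, 2 of the 4 long-chain ones rose and 2 of the 3 medium-chain ones fell. These shares were 50% and 66.7%, beside 7.89% of all tested genes called higher and 7.28% called lower. Acsl1, the main long-chain synthetase of liver, had 392, 427 and 386 CPM in DIO and 553, 534, 499.5, 545 and 519.5 CPM in DIO + DHA. Acsl5, a long-chain synthetase of the mitochondrial outer membrane and endoplasmic reticulum, had 155, 149 and 163 CPM in DIO and 248, 238, 216, 233 and 253 CPM in DIO + DHA. In both genes all 5 DIO + DHA libraries were above all 3 DIO libraries. Acsl5 rose 1.53-fold (log2 fold change 0.61, SE 0.076, adjusted p = 4.09e-09) and Acsl1 rose 1.32-fold (0.40, SE 0.067, adjusted p = 6.18e-06). The other long-chain synthetases were low and uncalled, with 7.14 ± 0.622 and 7.81 ± 1.05 CPM for Acsl3 and 16.6 ± 2.46 and 13.6 ± 1.57 CPM for Acsl4 in DIO and DIO + DHA (SD, n = 3 and 5).

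Acsm1 and Acsm5 encode mitochondrial synthetases that activate medium-chain fatty acids and, like Acsm3, lie in 1 cluster on chromosome 7, where the 3 genes span positions 119118686 to 119386736 (GRCm39). Acsm1 had 150, 139 and 141 CPM in DIO and 109.7, 106, 105, 114 and 111.6 CPM in DIO + DHA. Acsm5 had 49.4, 47.5 and 47.8 CPM in DIO and 31.7, 36.1, 35.96, 28.3 and 26.8 CPM in DIO + DHA. Neither gene overlapped between the groups, and these were the only 2 of the 36 genes called lower by edgeR. Acsm5 fell by 0.61 on the log2 scale (SE 0.112, adjusted p = 2.48e-05) and Acsm1 fell by 0.39 (SE 0.078, adjusted p = 0.000148). Acsm3, with 8.55 ± 3.57 CPM in DIO and 7.17 ± 2.76 CPM in DIO + DHA, varied by more within groups than it differed between them, and its sign turned without DIO replicate 4 (-0.31 with it and 0.19 without it). The last 500 exonic bases of Acsm3 are shared in full with the neighbouring gene Eri2, and reads there could not be assigned to either gene.

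The carnitine shuttle changed at some of its steps. Crat, carnitine acetyltransferase, which exchanges short acyl groups between CoA and carnitine, had 88.1, 85.8 and 96.9 CPM in DIO and 132.6, 126, 127, 133 and 118 CPM in DIO + DHA. It rose 1.41-fold (log2 fold change 0.49, SE 0.083, adjusted p = 6.25e-06) with no overlap between the groups. Of its last 500 exonic bases, 11.8% are shared with Dolpp1. Mlycd encodes malonyl-CoA decarboxylase, which removes the inhibitor of carnitine palmitoyltransferase 1. It had 110.5, 109.9 and 123 CPM in DIO and 157, 132, 147, 148 and 130.5 CPM in DIO + DHA, again without overlap, and rose 1.24-fold (0.32, SE 0.082, adjusted p = 0.00394).

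Cpt1a, the carnitine palmitoyltransferase of the outer membrane and the main control point of entry into liver mitochondria, had 458, 508 and 413 CPM in DIO and 519, 485, 470.0, 458 and 473 CPM in DIO + DHA. The DIO libraries spanned most of the DIO + DHA range, the log2 fold change was 0.07 (95% interval -0.07 to 0.21, adjusted p = 0.623), and without DIO replicate 5, the lowest library, it was -0.00054. Cpt2, its partner of the inner membrane, had 166, 165 and 175 CPM in DIO and 195, 194, 180.5, 199.6 and 202 CPM in DIO + DHA. All DIO + DHA libraries were higher, but Cpt2 just missed the threshold (0.20, SE 0.074, adjusted p = 0.0515) and passed it without DIO replicate 5 (adjusted p = 0.0499). The carnitine transporter Slc22a5 had 27.2 ± 2.20 CPM in DIO and 31.8 ± 3.29 CPM in DIO + DHA and was not called (0.25, adjusted p = 0.204).

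Of the 8 acyl-CoA dehydrogenases, which carry out the opening step of the spiral, 3 (37.5%) were called higher, beside 7.89% of all tested genes. None was called lower, where the share of all tested genes was 7.28%. The medium-chain enzyme Acadm was higher, at 952 ± 85.2 CPM against 824 ± 89.3 CPM (log2 fold change 0.21, adjusted p = 0.0407). The groups overlapped in DIO + DHA replicate 6, and leaving out any library but DIO replicate 4 or DIO + DHA replicate 6 ended the call, with adjusted p from 0.0677 (without DIO replicate 1) to 0.286 (without DIO replicate 5). The long-chain enzyme Acadl had 378 ± 18.2 CPM in DIO and 413 ± 11.2 CPM in DIO + DHA (0.13, 95% interval -0.01 to 0.26, adjusted p = 0.235).

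The short-chain enzyme Acads had 133.0, 121 and 132.6 CPM in DIO and 124, 119, 121, 126 and 118.8 CPM in DIO + DHA, with an interval of -0.23 to 0.08 around a log2 fold change of -0.07. Acadvl, the very-long-chain enzyme, had 25.8, 37.2 and 14.7 CPM in DIO and 28.9, 55.8, 22.1, 39.3 and 12.6 CPM in DIO + DHA. The libraries of each group were spread widely and overlapped, and the log2 fold change of 0.26 had an SE of 0.541 and became -0.10 without DIO replicate 5 and -0.01 without DIO + DHA replicate 2. In Acadvl, 82% of the last 500 exonic bases are shared with the antisense gene Dvl2, and counting took no account of strand, so reads in the shared bases were left out of its count.

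Acad11 and Acad12, members of the family with less well known substrates, had the smallest p-values among the dehydrogenases. Acad12 was low, with 4.49, 5.94 and 6.91 CPM in DIO and 10.7, 10.03, 8.90, 12.6 and 9.15 CPM in DIO + DHA. It rose 1.69-fold (log2 fold change 0.76, SE 0.212, adjusted p = 0.0078) without overlap, on 80 counts in DIO and 205 in DIO + DHA, and the call ended without DIO replicate 4 (adjusted p = 0.0514). Acad11 had 131, 155 and 146 CPM in DIO and 187, 167, 174, 145.8 and 199.6 CPM in DIO + DHA. The groups overlapped in DIO + DHA replicate 5, Acad11 rose 1.20-fold (0.27, SE 0.084, adjusted p = 0.0197), and the call ended without DIO replicate 1 (adjusted p = 0.0895), DIO + DHA replicate 1 (adjusted p = 0.0766) or DIO + DHA replicate 6 (0.0754). Acad10, the neighbour of Acad12 on chromosome 5, and Acad9 were not called, at log2 fold changes of 0.06 and -0.06, and turned sign without DIO replicate 4 (Acad10, -0.08) and without DIO replicate 1 or DIO + DHA replicate 1 (Acad9, 0.15 and 0.11).

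**Figure D3:**
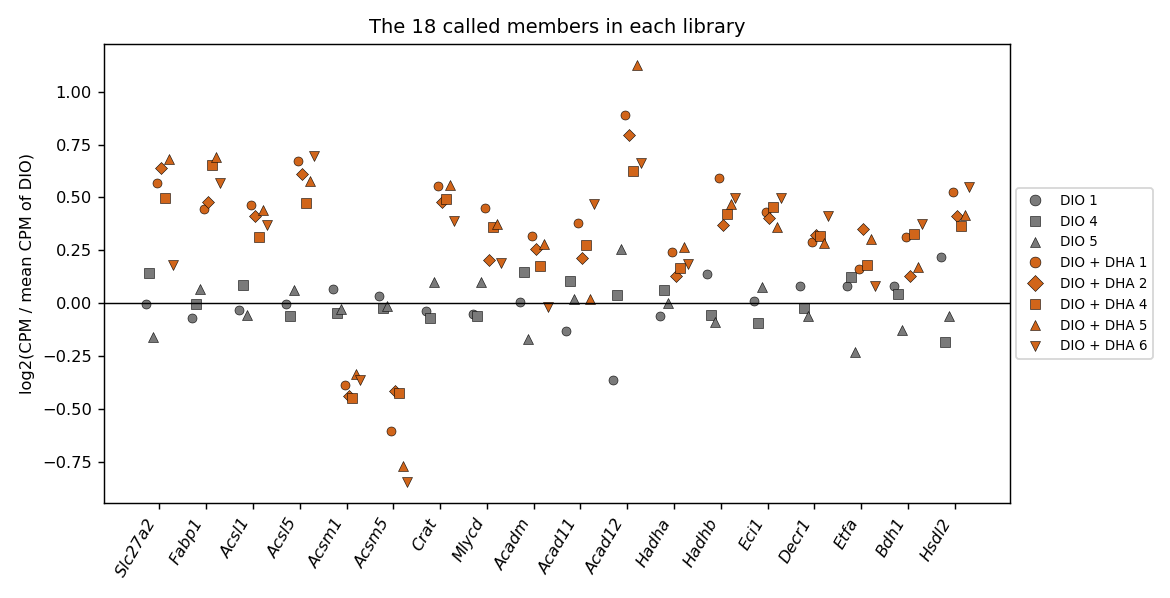
Level of each of the 18 called genes (horizontal axis) in each library, as the log2 of its CPM over the mean CPM of the 3 DIO libraries (vertical axis). Grey marks are DIO and orange marks DIO + DHA libraries, with 1 shape per replicate number, and Acadm, Acad11 and Etfa are the 3 genes in which the groups overlap.

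The mitochondrial trifunctional protein, which performs the later reactions on long chains, is built from the products of Hadha and Hadhb. The pair lies head to head on chromosome 5, and 85 bases (69.4% G or C) separate the annotated starts, shown here since both genes rose (GRCm39 chr5:30360161-30360245, + strand).
Hadha to Hadhb: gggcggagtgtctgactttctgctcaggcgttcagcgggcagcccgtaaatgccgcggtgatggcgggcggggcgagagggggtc
Hadhb had 72.4, 63.3 and 61.8 CPM in DIO and 99.4, 84.9, 88.3, 91.1 and 93.05 CPM in DIO + DHA, and rose 1.42-fold (log2 fold change 0.50, SE 0.090, adjusted p = 2.16e-05). Hadha had 435, 473 and 454 CPM in DIO and 537, 496, 509, 546 and 517 CPM in DIO + DHA, and rose 1.15-fold (0.20, SE 0.066, adjusted p = 0.0333). The groups did not overlap in either gene, but the Hadha call ended without DIO replicate 1 (adjusted p = 0.129), DIO replicate 5 (0.0616) or DIO + DHA replicate 1, 4 or 5 (0.0995, 0.0635 and 0.0805). Of the last 500 exonic bases of Hadha, 15% are shared with Garem2, which had 0 counts in every library.

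The log2 ratio of Hadhb to Hadha within a library, which does not depend on how libraries are scaled, was -2.78 ± 0.174 in DIO (SD, n = 3) and -2.51 ± 0.059 in DIO + DHA (SD, n = 5). The libraries did not overlap and the ratio was 0.27 higher in DIO + DHA, with p = 0.0179, the smallest value that exact two-sided permutation of the 8 libraries (56 assignments) can give, and 0.0536 after adjustment over the 6 pairs compared. Acsl5 to Acsl1 gave the same p-values, with log2 ratios of -1.36 ± 0.139 in DIO and -1.16 ± 0.073 in DIO + DHA, a difference of 0.20, but without DIO replicate 4 the difference was 0.13 (exact permutation p = 0.143). Neither pair therefore passed the adjusted threshold. With both at the smallest possible p and no other pair there, neither could have passed it. The adjusted values thus cannot decide whether either ratio shifted.

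In the other 4 pairs the libraries overlapped. The exact permutation p was 0.214 for Cpt2 to Cpt1a (difference 0.13), 0.393 for Bdh1 to Acat1 (difference 0.11), 0.714 for Etfb to Etfa (-0.06) and 0.643 for Acads to Acadvl (-0.30). The SD of the ratio within DIO + DHA was 0.093, 0.198, 0.088 and 0.789 for these pairs. Without DIO replicate 5, Cpt2 to Cpt1a was 0.24 higher in DIO + DHA (p = 0.0476, the smallest this exact test then allows), and the differences of Etfb to Etfa and of Acads to Acadvl turned to 0.08 and 0.08. Leaving out DIO + DHA replicate 2 raised the difference of Bdh1 to Acat1 to 0.18, and leaving out DIO replicate 4 or DIO + DHA replicate 6 lowered it to 0.07 and 0.06.

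**Figure D4:**
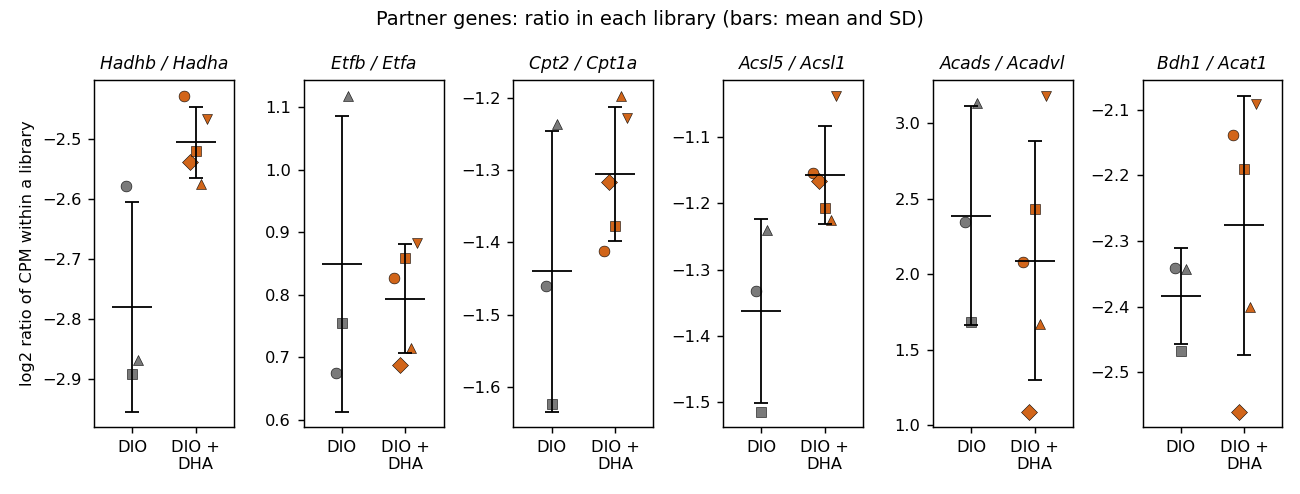
Log2 ratio of the CPM of 2 partner genes in each library (vertical axes, 1 scale per panel) by group (horizontal axis). Points are libraries (grey DIO, orange DIO + DHA, 1 shape per replicate number) and bars the mean and SD. The groups are apart in the panels of Hadhb to Hadha and Acsl5 to Acsl1 and overlap in the other 4.

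Of the other 5 enzymes of the spiral, Eci1 and Decr1 rose. Eci1, the enoyl-CoA isomerase that moves double bonds in the way of the spiral, had 416, 388 and 435 CPM in DIO and 556, 546.5, 566, 529.8 and 582 CPM in DIO + DHA. It rose 1.35-fold (log2 fold change 0.43, SE 0.067, adjusted p = 1.34e-06) without overlap. Decr1, the 2,4-dienoyl-CoA reductase that acts on polyunsaturated chains, had 336 ± 17.7 CPM in DIO and 421 ± 15.1 CPM in DIO + DHA and rose 1.26-fold (0.33, adjusted p = 0.00022). The other 3 were not called. Echs1, the enoyl-CoA hydratase, had 341 ± 17.2 and 323 ± 14.5 CPM, Hadh, the hydroxyacyl-CoA dehydrogenase, had 352 ± 67.8 and 365 ± 18.2 CPM, and the thiolase Acaa2 had 1501 ± 87.4 and 1633 ± 94.9 CPM. Their log2 fold changes were -0.07, 0.07 and 0.12. The value of Hadh depended on DIO replicate 1, which at 428 CPM stood above the other DIO libraries (328 and 299 CPM). Without it Hadh was called higher (0.23, adjusted p = 0.0431), and without DIO replicate 5 the value was -0.02. Acaa2 was called only with DIO replicate 5 and DIO + DHA replicate 6 both left out (0.18, adjusted p = 0.0477).

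Electron transfer from the dehydrogenases uses the subunits Etfa and Etfb and the ubiquinone oxidoreductase Etfdh. Etfa had 463, 476 and 373 CPM in DIO and 488.5, 558, 495, 541 and 462 CPM in DIO + DHA. It was called higher (1.17-fold, log2 fold change 0.22, SE 0.074, adjusted p = 0.0331), but the groups overlapped and the call ended without DIO replicate 5 (adjusted p = 0.372) or DIO + DHA replicate 2, 4 or 5 (0.114, 0.0614 and 0.0879). Etfb had 739.5, 804 and 811 CPM in DIO and 867, 899.3, 898.7, 888 and 852 CPM in DIO + DHA. All DIO + DHA libraries were higher, but the adjusted p was 0.0705 for a log2 fold change of 0.16. Etfb shares 58.2% of its exonic bases with other annotated genes, among them Etfbl, which had 0 counts in every library. Of its last 500 exonic bases, 12.2% are shared, with Mir7051 and not with Etfbl. Etfdh had 204, 203 and 199.6 CPM in DIO and 239, 231, 264, 236 and 196 CPM in DIO + DHA. Of the DIO + DHA libraries, replicate 6 alone lay below the DIO libraries, the adjusted p was 0.0693 (0.20, SE 0.078), and without that library Etfdh was called higher (0.25, adjusted p = 0.00889).

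Of the ketone body genes, Bdh1, the dehydrogenase that reduces acetoacetate to beta-hydroxybutyrate, had 149, 145 and 129 CPM in DIO and 176, 154.5, 177, 159 and 183 CPM in DIO + DHA. It rose 1.21-fold (log2 fold change 0.28, SE 0.080, adjusted p = 0.0103) without overlap, and the call ended without DIO replicate 5 (0.22, adjusted p = 0.109). Acat1, the acetoacetyl-CoA thiolase, had 758, 807 and 657 CPM in DIO and 775, 914, 809.6, 842 and 781 CPM in DIO + DHA. The groups overlapped and Acat1 was not called (0.15, adjusted p = 0.134), except without DIO replicate 4 (0.23, adjusted p = 0.0497). Hsdl2, a hydroxysteroid dehydrogenase-like protein of peroxisomes and mitochondria, had 123, 93.2 and 101.5 CPM in DIO and 153, 141, 136, 141 and 155 CPM in DIO + DHA, and rose 1.40-fold (0.49, SE 0.085, adjusted p = 1.15e-05) without overlap.

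DIO replicate 5 and DIO + DHA replicate 6 were often the lowest libraries of their groups. DIO replicate 5 was lowest in 18 of the 36 genes (50% of them, beside 32.4% of all tested genes) and DIO + DHA replicate 6 in 14 (38.9%, beside 20.8%). Both were lowest in Slc27a2, Acsl4, Acsm3, Acadvl, Acadl, Acadm, Etfa and Etfdh, 8 genes or 22.2%, beside 7.81% of all tested genes. The median log2 difference of the 36 genes from the DIO mean was 0.19 to 0.23 in DIO + DHA replicates 1, 2, 4 and 5 and 0.09 in replicate 6. With both libraries left out, an alternative chosen after seeing the data, 15 genes were called higher and 2 lower. Acadm, Acad11, Etfa and Bdh1 were then not called, and Acaa2, Etfb and Etfdh were.

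Over the 19 alternative settings of the test, 10 of the 18 called genes kept call and direction in each one that tested them: Fabp1, Acsl1, Acsl5, Crat, Hadhb, Eci1, Decr1 and Hsdl2 among those that rose, and both Acsm1 and Acsm5. Library size scaling ended the call of Slc27a2 (adjusted p = 0.076). Requiring a log-odds B above 0 in limma-voom, the cutoff by which the paper selected its genes, ended that of Mlycd.

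The pathway holds further genes outside the 36. Of 33 such companion genes, 27 were tested. Of these, 10 (37.0%) were called higher, beside 7.89% of all tested genes, and 1 (3.70%) lower, beside 7.28%. Their median log2 fold change was 0.01, with 14 values positive and 13 negative. The gene called lower was Slc27a5 (log2 fold change -0.19, adjusted p = 0.0478), a call that ended without any of the DIO replicates or without DIO + DHA replicate 1, 2 or 5. The called companions with the smallest p-values were Hsd17b10, a dehydrogenase of branched-chain and short acyl-CoAs (0.73, adjusted p = 7.47e-13), Slc16a1, a transporter of ketone bodies and lactate (0.80), Slc27a1, a fatty acid transporter (0.92), Acot2, a mitochondrial thioesterase (0.74), Crot, the peroxisomal carnitine octanoyltransferase (0.37), and Acss1, a mitochondrial acetyl-CoA synthetase (2.39, on 7 counts in DIO). Acss1 passed the filter on low counts through DIO + DHA alone, so a lower call was hardly open to it. The carnitine-acylcarnitine carrier Slc25a20, between Cpt1a and Cpt2 in the shuttle, was not called (0.07, 95% interval -0.07 to 0.22, adjusted p = 0.607).

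Of 16 regulators of the pathway, 3 (18.75%) were called higher and 2 (12.5%) lower, beside 7.89% and 7.28% of all tested genes. Their median log2 fold change was -0.05, with 7 values positive and 9 negative. Ppargc1a, a coactivator of PPAR alpha, had 6.73, 7.92 and 9.21 CPM in DIO and 33.45, 41.8, 36.7, 31.1 and 30.1 CPM in DIO + DHA (log2 fold change 2.04). Pdk4, the kinase that holds back pyruvate dehydrogenase, rose by 2.27 on the log2 scale and the fasting hormone gene Fgf21 by 0.77. The liver nuclear receptor Hnf4a fell by 0.53 and the phosphatase and coactivator Lpin1 fell by 0.52. Ppara, named after its values were seen, was not called (-0.18, 95% interval -0.37 to 0.02, adjusted p = 0.252).

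Markers of other tissues moved with the groups, and muscle and brown fat also express many of these genes. The summed level of 24 skeletal muscle markers was 42.1 to 49.4 CPM in DIO and 1550 to 1686 CPM in DIO + DHA, with all 24 genes called higher. Mb and Casq1 were at 0 counts in every DIO library. Several of the 24, Mb and Casq1 among them, passed the filter on low counts through DIO + DHA alone. A lower call was therefore hardly open to them, nor to Ucp1, Krt13 and Lgals7 below. Brown fat markers (6 genes, Ppargc1a among them) summed to 33.6 to 35.99 CPM and 155 to 179.8 CPM, with Ucp1 at 0 in DIO. White fat markers (6 genes) summed to 18.5 to 20.5 CPM and 73.85 to 106 CPM. Of these, Plin1 and Lep were at 0 in DIO, but had only 13 and 2 counts in DIO + DHA. Squamous epithelium markers (10 genes) summed to 181 to 195.5 CPM in DIO, most of it from Perp (158 CPM on average), and to 266 to 279 CPM in DIO + DHA. Krt13 and Lgals7 were at 0 in DIO, with 306 and 119 counts in DIO + DHA, and so were Krt5 and Krt14, with 27 and 18. Krt6a had 0 counts in DIO and 1 in DIO + DHA, Krt1 had 0 in every library, and Krt10 and Dsp were not called. Krt4 stood at 0.060 CPM in DIO and 25.2 CPM in DIO + DHA on average. The sum of macrophage and Kupffer cell markers (12 genes) was lower, at 868 to 972 CPM in DIO and 501 to 536 CPM in DIO + DHA, with 10 genes called lower and Marco called higher. The sums of endothelial (194 to 208 and 142 to 171 CPM) and stellate cell markers (255 to 277 and 212 to 236 CPM) were also lower. In each list 2 of the 7 genes (28.6%) were called lower, beside 7.28% of all tested genes. They were Clec4g and Lyve1 in the endothelial list, and Lrat and Rgs5 in the stellate list. All 7 stellate genes had negative log2 fold changes, while 3 endothelial genes (Pecam1, Kdr and Egfl7) had positive ones. For the sum of each of these 7 lists the exact permutation p was 0.0179, the smallest possible, and 0.023 after adjustment over 9 lists.

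Hepatocyte markers, 9 matched genes, had 85201 to 91092 CPM in DIO and 86307 to 99159 CPM in DIO + DHA (exact permutation p = 0.196). Within this list Apoa1 was called higher (log2 fold change 0.52), and Fgb and Cyp2e1 were called lower (-0.51 and -0.22), with 6 genes not called. The sum of cholangiocyte markers (6 genes, 1 of 5 tested called higher) overlapped between the groups too (exact permutation p = 0.571). Albumin (Alb) stood at 38343 to 50006 CPM over all 8 libraries. All 5 DIO + DHA libraries carried the muscle signal, so no library could be left out for it. Cpt1b, the muscle form of carnitine palmitoyltransferase 1, had 1 count in all 8 libraries together, but 81.4% of its exonic bases are shared with a read-through gene and reads there were not counted. The part of the other-tissue signal in the differences of the 36 genes, the companion genes and the regulators was not tested.

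**Figure D5:**
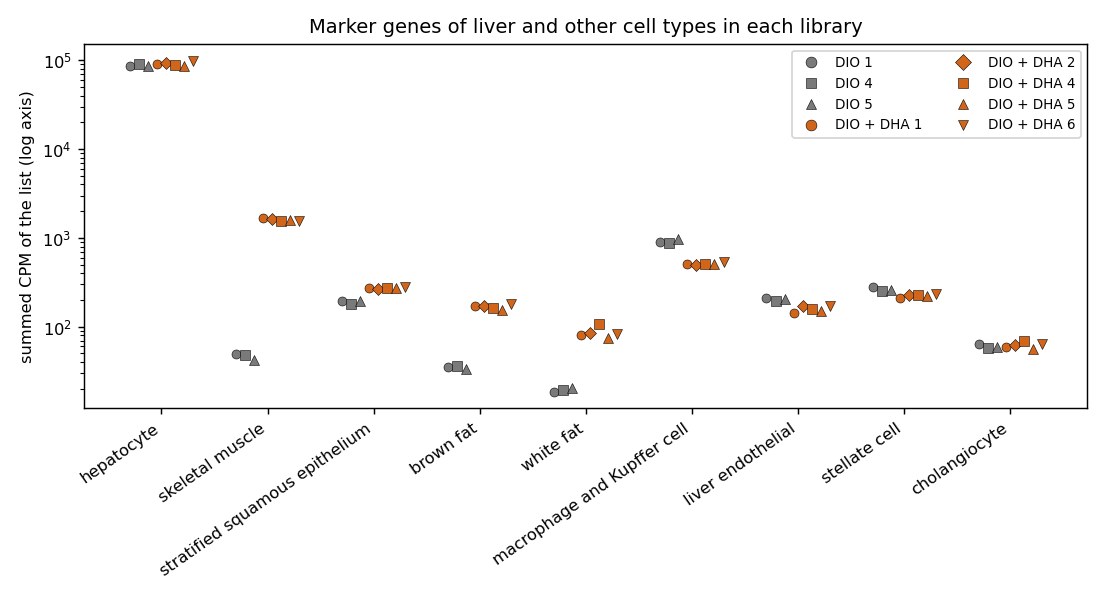
Summed CPM of each marker list (vertical axis, log scale) in each library, by list (horizontal axis). Grey marks are DIO and orange marks DIO + DHA libraries, 1 shape per replicate number. Hepatocyte and cholangiocyte lists overlap between the groups, and the muscle list lies between 42.1 and 49.4 CPM in DIO and at 1550 CPM or more in DIO + DHA.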

How the data were processed

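Liver RNA of 3 DIO and 5 DIO + DHA mice was compared, with 1 library per mouse. The deposited files give raw counts of each gene. Per the paper's methods, the labels and the file headers, the authors made cDNA of 3′ ends from poly(A) RNA by an adapted SCRB-seq protocol, checked reads with FastQC 0.11.8, aligned them to GRCm39 with STAR 2.7.9a and counted them on GENCODE M33 exons with featureCounts 1.6.0. The counting commands set no strand, multi-mapping or overlap option, and collapsing of molecular identifiers is not stated, so counting errors cover counting only.

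Names came from GENCODE M39 (56323 of 56884 identifiers). Genes with counts under 5 in over 50% of the libraries of both groups were left out. CPM used TMM-scaled library sizes. TMM-scaled counts were tested with edgeR 4.0.16 (quasi-likelihood F test, robust) in R 4.3.3. Ratios of 6 partner pairs were compared by exact permutation over 56 assignments, on log2 CPM with a prior count of 2. Sums of 9 marker lists were compared by the same permutation, on the log2 of the summed CPM plus 1. The scripts were tested on simulated data. Members and lists were chosen with earlier results of these data known. Libraries were grouped by their labels. Values per library are given for the 2 genes with the smallest p of each step, for genes that fell and for partner genes, and companion genes and regulators where they were called and among the 6 smallest p of their list, plus Cpt1b and Slc25a20 whatever their values. Alternatives (DESeq2 1.42.0, limma-voom with limma 3.58.1, scaling, filters, replicate block, leaving out libraries) are given at the end. The values of 1 companion gene are not reported here.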

Additional observations from a re-analysis of the deposited data

How the results depend on the processing

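The number of genes called higher was 16 and ran from 13 to 16 under the other scalings, filters and tests and with each library left out, except that requiring log-odds B above 0 in limma-voom left 9. That cutoff is the one by which the paper selected its genes. Mlycd, Acadm, Acad11, Acad12, Hadha, Etfa and Bdh1 were not called under it. The number of genes called lower was always 2. Acadm, Etfa, Hadha and Acad11 lost their call most often. The 1 companion gene called lower became 0 under the DESeq2 Wald test, no filter on low counts, the replicate block, the log-odds rule and with DIO replicate 5 and DIO + DHA replicate 6 both left out, and ran from 0 to 1 with a library left out. Under limma-voom Slc27a4 turned to 0.0012. With both low libraries left out, Cpt1a and Hadh turned to -0.00104 and -0.019. The share of member promoters with the motif became 3.03% with at most 1 mismatch and 42.4% with at most 3.

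With 1 library left out, log2 fold changes of uncalled genes that changed sign ran from -0.034 to 0.034 (Slc27a4), -0.68 to 0.19 (Acsm3), -0.00054 to 0.158 (Cpt1a), -0.096 to 0.787 (Acadvl), -0.33 to 0.147 (Acad9), -0.075 to 0.163 (Acad10) and -0.025 to 0.226 (Hadh). Log2 ratio differences ran from -0.143 to 0.079 (Etfb to Etfa), 0.042 to 0.236 (Cpt2 to Cpt1a), 0.129 to 0.265 (Acsl5 to Acsl1), 0.062 to 0.179 (Bdh1 to Acat1) and -0.65 to 0.078 (Acads to Acadvl). The causes were not tested.

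Replicate numbers 1, 4 and 5 occur in both groups, but same-numbered libraries did not deviate together (r = -0.013, -0.014 and -0.011). The main test did not pair them, and these values cannot exclude a link behind the numbers. With the replicate block 15 genes were called higher and 2 lower, without Acad11 and Etfa and with Etfdh. Among the genes below 100 CPM the coefficient of variation (medians of 11.6% in DIO and 12.5% in DIO + DHA) was close to that of counting alone (11.7% and 10.7%). But it was well above counting in Acadvl (43.5% and 52.3%, counting 11.4% and 10.2%). It was also above counting in Acsm3 (41.75% and 38.5%, counting 19.55% and 19.85%) and Acad9 (39.65% and 39.3%, counting 22.1% and 24.75%).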
